A study of Mus musculus with 6 samples.

Results

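Tuft cells, which taste the contents of the gut, were followed through 7 of their genes, Rgs13, Spib, Sh2d6, Pou2f3, Trpm5, Avil and Dclk1, in RNA of the ileal crypt base from mice with and without a working Nod2 gene. The 7 genes were chosen by name from the 744 genes named in the authors' deposited table of differences between the genotypes, and each has 1 probe set among the 28853 of the array. That table was selected on the difference between genotypes, so a higher or lower mean of these genes is a description here and is given no test.

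The samples were crypt base epithelium cut by laser from sections of mouse ileum, a cut placed to enrich for Paneth cells. There were 3 arrays from wild-type mice (WT) and 3 from Nod2-/- mice, all on the C57BL/6J background, with no treatment of the mice named in the labels, and all 8 weeks old. Nod2 is a receptor inside the cell for fragments of bacterial cell walls, and how the allele was made is not given in the labels. The labels tie no array to an animal, so the spread between arrays may be partly technical, and 3 arrays per group limit the precision. Nod2 itself and the Paneth cell markers Lyz1, Mmp7 and Defa24 carry no name in the table. That table holds all 962 probe sets at least 1.33-fold apart between the genotypes. These genes therefore have no probe set that far apart, or only one without a single matched symbol. Neither the genotype nor the labelled cell type was checked by its own gene. The median log2 intensity of the arrays lay between 5.11 and 5.15, and the correlation between arrays, across probe sets, between 0.971 and 0.987.

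Tuft cells are rare epithelial cells with a tuft of stiff microvilli. They sense luminal compounds with the machinery of taste cells, in which a receptor and its G protein activate phospholipase C, calcium is released and the cation channel Trpm5 opens. The transcription factor Pou2f3 is required for their formation in the mouse, and they are known for releasing interleukin 25 and eicosanoids that set off type 2 immune responses in the small intestine.

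Pou2f3 belongs to the POU factors, which bind the octamer ATGCAAAT, and Spib to the ETS factors, whose SPI members bind the PU box, GAGGAAGT. The 250 bases before the annotated start of each gene were read from the RefSeq promoters of GRCm38.p6, where 6 of the 7 genes have 7 windows between them and Pou2f3 was not matched. Neither the octamer nor the PU box was found on either strand in these windows, against 1.6% and 2.44% of all 32851 windows. The first 7 letters of the octamer, ATGCAAA, which 4.12% of all windows hold, were found in the window of Avil, once on each strand. The last 7 letters, TGCAAAT, which 3.56% of windows hold, were found in that of Spib. The core of the PU box, GAGGAA, was found in a window of Dclk1 and in that of Avil, where 23.3% of all windows hold it. The windows of Avil (chr10:127000459-127000708, + strand) and Spib (chr7:44532072-44532321, - strand) are shown because they hold the matches to part of the octamer. Capitals mark matches, on either strand, to the parts of the octamer and to the core of the PU box.
Avil: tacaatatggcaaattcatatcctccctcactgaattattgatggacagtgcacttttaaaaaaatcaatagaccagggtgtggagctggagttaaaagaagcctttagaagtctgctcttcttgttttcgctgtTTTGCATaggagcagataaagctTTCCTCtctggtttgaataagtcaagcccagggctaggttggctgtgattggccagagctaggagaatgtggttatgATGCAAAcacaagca
Spib: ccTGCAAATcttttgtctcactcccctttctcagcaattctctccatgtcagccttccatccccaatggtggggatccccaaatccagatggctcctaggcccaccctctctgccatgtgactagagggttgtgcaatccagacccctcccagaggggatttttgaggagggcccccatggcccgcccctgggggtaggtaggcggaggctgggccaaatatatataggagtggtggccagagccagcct
In Avil the octamer part nearest the start lies at bases -15 to -9, and the other, on the reverse strand, at -115 to -109, with the start at 0. In Spib the match lies at -248 to -242. These are matches of letters and were not linked to any binding.

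Across the 7 genes the mean log2 intensity was higher in Nod2-/-, at 6.16 ± 0.50 (SD, n = 3), than in WT, at 5.36 ± 0.16, which is 1.75-fold. Array by array this mean was 5.18, 5.47 and 5.42 in WT replicates 1, 2 and 3, and 6.57, 6.31 and 5.60 in Nod2-/- replicates 1, 2 and 3. Replicates 1 and 2 of Nod2-/- stood clear of WT, at 2.32-fold and 1.94-fold the WT level, whereas replicate 3, at 1.19-fold, lay close to it. All 7 genes were above every WT array in Nod2-/- replicates 1 and 2, and 3 of the 7 were in replicate 3. The share of all probe sets above WT on a single array was not computed. As the genes come from a table selected on the difference, nothing is read from these counts. In whole crypt base RNA, more tuft cells and more of these transcripts per cell cannot be told apart.

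All 7 genes were at least 1.33-fold higher in Nod2-/-, as were 2.11% of all probe sets. This is the authors' fold threshold for the table, which also takes probe sets at least 1.25-fold apart that pass their unpaired test. Since the genes come from that table, nothing is read from this. No probe set of the array passed limma's adjusted threshold of 0.05, where 1106 of 28853 had an unadjusted p under 0.05. The authors' unpaired test, recomputed, gave 0 after adjustment and 1043 before it. Both unadjusted counts are below a share of 0.05 of all probe sets, the share expected where no probe set differs. In 3 of the 7 genes, Pou2f3, Trpm5 and Avil, every Nod2-/- array lay above every WT array. Of all probe sets, 3.42% were higher in Nod2-/- without overlap, and of those at least 1.33-fold higher, 37.7% were.

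**Figure D1:**
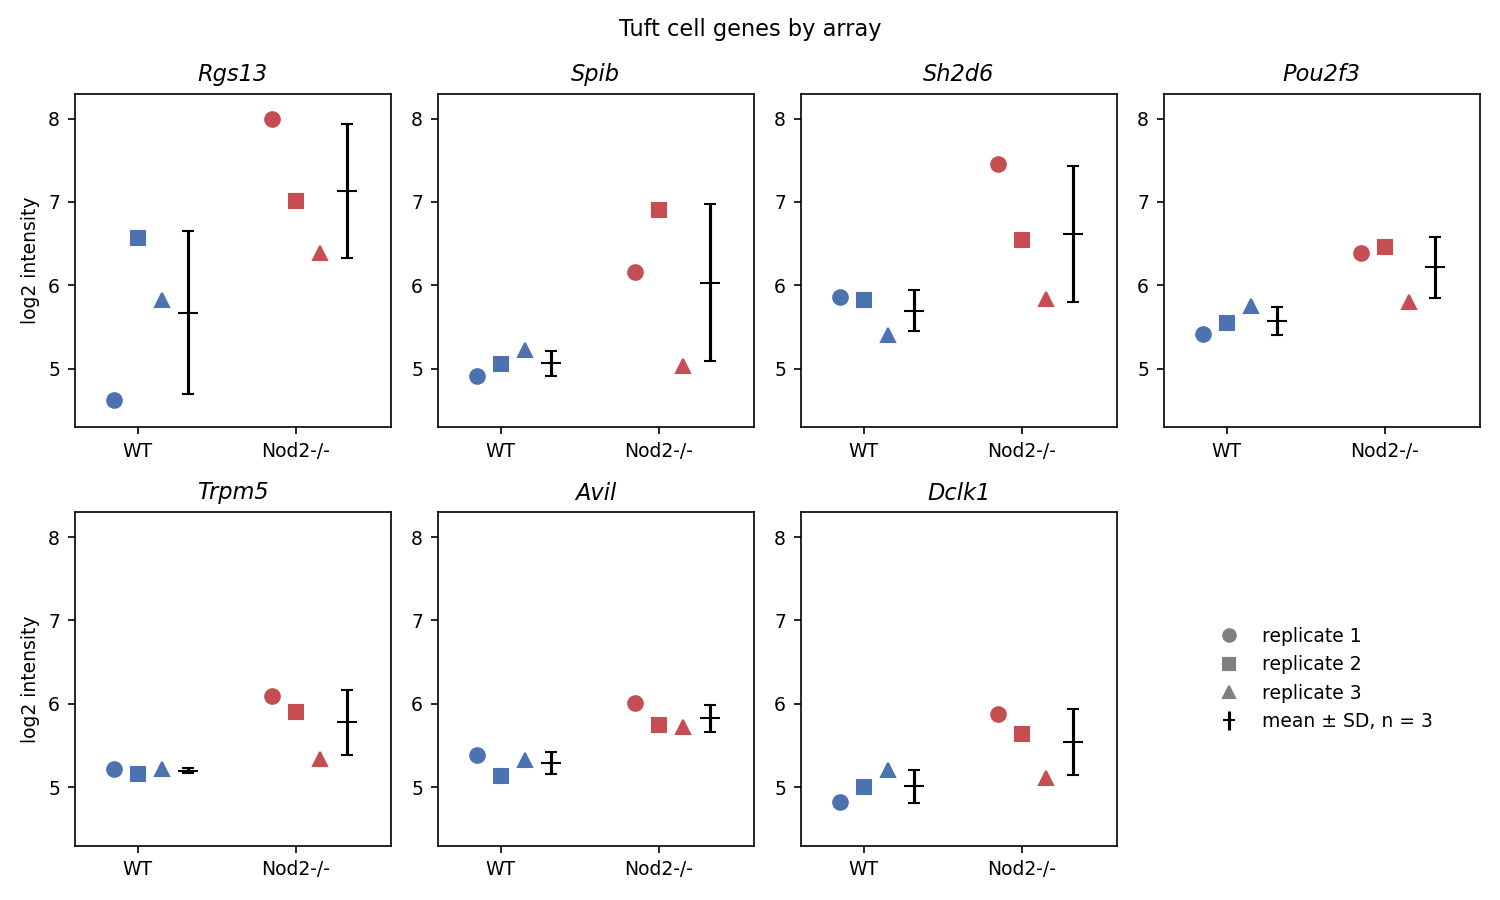
Log2 intensity (y axis, the same scale in each panel) of the 7 tuft cell genes on the 3 WT arrays (blue) and 3 Nod2-/- arrays (red), with the symbol giving the replicate and the bar the mean ± SD. Nod2-/- replicate 3 (triangle) is the lowest red point in all 7 panels and lies within or just above the WT points in all but Avil.

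Among the transcription factors, Pou2f3 (chromosome 9, 42932954 to 43013838, mm9) read 5.42, 5.55 and 5.75 in WT replicates 1, 2 and 3, and 6.39, 6.46 and 5.80 in the Nod2-/- replicates (log2 intensity). The groups did not overlap, but the gap between the lowest Nod2-/- array and the highest WT array was 0.05. The difference was 0.64 with a standard error of 0.23, or 1.56-fold.

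Spib, an ETS factor of tuft cells that Paneth cells, M cells and B cells also use (chromosome 7, 51781365 to 51787441), read 4.91, 5.06 and 5.22 in WT and 6.16, 6.90 and 5.03 in Nod2-/-. Nod2-/- replicate 2 held the highest value, and replicate 3 lay among the WT arrays, 0.03 below the WT mean. The difference of 0.97, or 1.96-fold, therefore had a standard error of 0.55. It was 0.54 without Nod2-/- replicate 2 and 1.47 without replicate 3.

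Of the signalling genes, Trpm5, the calcium-activated channel of taste transduction (chromosome 7, 150257550 to 150280547), had the narrowest WT values, 5.22, 5.16 and 5.22. The Nod2-/- arrays read 6.09, 5.90 and 5.34, all above WT, the last by 0.11. The means differed by 0.58 with a standard error of 0.23, or 1.49-fold.

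Rgs13, a regulator that speeds the switching off of G proteins (chromosome 1, 145985784 to 146024502), had the largest mean difference of the 7 and the widest WT spread. It read 4.63, 6.57 and 5.82 in WT and 7.99, 7.01 and 6.39 in Nod2-/-. WT replicate 2 lay above Nod2-/- replicate 3, so the groups overlapped. The difference was 1.46 with a standard error of 0.73, or 2.74-fold, and without WT replicate 1 it was 0.93.

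Sh2d6, an SH2 domain protein marking tuft cells (chromosome 6, 72463646 to 72470644), read 5.86, 5.82 and 5.41 in WT against 7.46, 6.54 and 5.84 in Nod2-/-. Nod2-/- replicate 1 was at 3.40-fold the WT mean and replicate 3 at 1.11-fold, within the WT range. The difference was 0.92 with a standard error of 0.49, or 1.89-fold, and 0.49 without Nod2-/- replicate 1.

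Of the cytoskeletal genes, Avil, an actin-binding protein of the villin family found in the tuft (chromosome 10, 126437795 to 126458044), was the most even. It read 5.39, 5.14 and 5.33 in WT and 6.01, 5.75 and 5.72 in Nod2-/-. Here the groups stood 0.33 apart, and Nod2-/- replicate 3 was nearly level with replicate 2. The difference was 0.54 with a standard error of 0.12, or 1.46-fold.

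Dclk1, a microtubule-binding kinase widely used to stain tuft cells (chromosome 3, 55046501 to 55340600), read 4.82, 5.0 and 5.21 in WT and 5.88, 5.64 and 5.11 in Nod2-/-. Replicate 3 of Nod2-/- lay below replicate 3 of WT. The difference was 0.53 with a standard error of 0.25, or 1.45-fold. The WT means of Dclk1 and Spib, 5.01 and 5.06, lay below the median of every array. Signal over background was not analysed, and folds of such dim probe sets may be too small.

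Nod2-/- replicate 3 was the lowest of the 3 Nod2-/- arrays for all 7 genes, and replicate 1 the highest for 5. Among the 608 probe sets at least 1.33-fold higher in Nod2-/-, replicate 3 was lowest in 39.1% and replicate 1 highest in 50.3%. A number in the form of a date stands in the array column names. Both replicate 1 arrays share it, and the 4 other arrays share a second one, with no statement of what was dated. Between the replicate 1 arrays the 7 differences ran from 0.62 to 3.36, with a median of 1.06. Between the means of the other arrays they ran from 0.27 to 0.83, with a median of 0.50. All 7 were higher in Nod2-/- in both comparisons, and all 7 by more between the replicate 1 arrays. The 608 probe sets had medians of 0.86 between the replicate 1 arrays, with 1 array per genotype, and 0.41 between the means of the others.

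Covariation of the 7 genes was described after subtracting each gene's mean in its own genotype. The genes were chosen with earlier results of these data known, so it is a description and was given no test. Over the 6 arrays all 21 pairs of the 7 genes had a Pearson r above 0, with a median of 0.65. Pou2f3 and Dclk1 (0.93), Pou2f3 and Spib (0.92), Trpm5 and Dclk1 (0.89) and Trpm5 and Sh2d6 (0.88) were the closest pairs. Rgs13 and Avil, at 0.02, were the least alike. The same 6 arrays, with only 4 independent deviations, enter every pair. For all 138601 pairs of the 527 named probe sets higher in Nod2-/-, the median r was 0.13, and 57.7% of pairs were above 0.

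This covariation rested on 1 array. Without Nod2-/- replicate 3, the median r of the 21 pairs was 0.16, against 0.17 for the pairs of named probe sets, and 12 of the 21 were above 0. Leaving out any other single array gave medians between 0.48 and 0.75. Over the 3 Nod2-/- arrays alone the median was 0.92, against 0.04 for the named probe sets. With so few arrays r tends to lie near its limits. Replicate 3 was also the lowest of the 3 in all 7 genes, which favours a high r, so nothing further is read from this median. What the 7 genes shared was mainly the low value of Nod2-/- replicate 3.

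Each gene was also set against the mean of the other 6, with genotype means removed. Dclk1 (r of 0.94), Trpm5 (0.92) and Pou2f3 (0.88) followed it most closely, and 0.354%, 0.738% and 1.33% of all probe sets followed the same mean at least as closely. For Sh2d6, Spib and Rgs13 r was 0.72, 0.64 and 0.58, and 4.78%, 8.04% and 10.5% of probe sets followed at least as closely. Avil, at 0.37, followed the others least, and 19.9% of probe sets did so at least as closely. These r were not recomputed without Nod2-/- replicate 3, on which the covariation of the pairs rested.

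**Figure D2:**
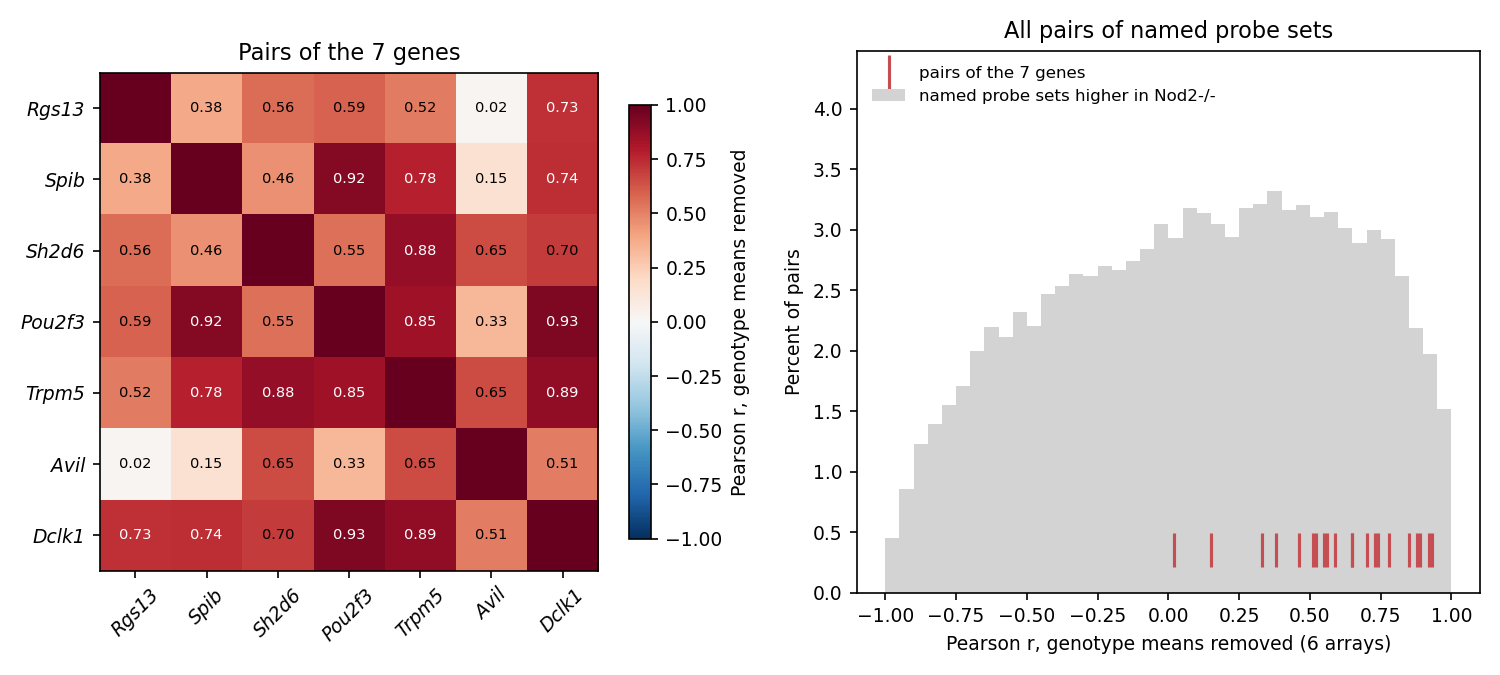
Left, Pearson r over 6 arrays with genotype means removed for each pair of the 7 genes (colour scale from -1 to 1, diagonal not labelled). Right, percent of all pairs of the 527 named probe sets higher in Nod2-/- (grey bars) by r, with the 21 pairs of tuft cell genes as red ticks, which lie between 0.02 and 0.93 where the grey pairs have a median of 0.13.

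Among named genes outside the 7, Dennd4a, an exchange factor for Rab GTPases, had the array profile most like their mean, with r of 0.995 over the 6 arrays and 0.993 with genotype means removed. It read 4.69, 4.89 and 4.94 in WT and 5.82, 5.54 and 4.97 in Nod2-/-. Mptx1, a mucosal pentraxin of Paneth cells, came next by both measures (0.984 each), and read 6.24, 6.68 and 6.95 against 9.58, 9.10 and 7.74. Replicates 1 and 2 of Nod2-/- were thus the high arrays, as for the 7 genes. Over the 6 arrays Ptpn2, a phosphatase that dampens cytokine signalling, Ppp2r3c and Strip2 followed, at 0.983, 0.981 and 0.980. With genotype means removed the next were Uxt (0.983), Snord53 (0.982) and Timm21 (0.968). Timm21 was 2.07-fold lower in Nod2-/-, so likeness within a genotype did not go with a higher mean in that gene. Without Nod2-/- replicate 3, r with genotype means removed was 0.963 for Dennd4a, 0.904 for Mptx1 and 0.775 for Timm21. Of 28846 other probe sets, 292 (1.01%) had r above 0.9 with genotype means removed.

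Lists of tuft cell genes, 4 in all, covering identity, taste signalling, eicosanoid enzymes and the microvillus skeleton hold 69 genes. Of these, 14 are named in the table, the 7 described so far and 7 more, and the other 55 are unnamed here. The table holds all 962 probe sets that are at least 1.33-fold apart in either direction. An unnamed gene therefore has no probe set that far apart, or only one without a single matched symbol. The 7 further genes all averaged higher in Nod2-/-. Their median log2 difference was 0.56, against -0.007 over all probe sets, but the table is selected on this difference. In 6 of the 7 every Nod2-/- array exceeded every WT array, as in 3.42% of all probe sets and 37.7% of those at least 1.33-fold higher. Their mean was 5.68, 5.64 and 5.73 in WT and 6.5, 6.32 and 6.03 in Nod2-/-, again with replicate 3 lowest.

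In the taste pathway, Plcb2, the phospholipase C that taste receptors activate, read 4.98, 5.04 and 5.35 in WT and 5.50, 5.42 and 5.43 in Nod2-/-, a 1.26-fold difference. Its Nod2-/- arrays were level with each other, unlike those of Trpm5. Pde2a, a phosphodiesterase of cyclic nucleotides, was 1.75-fold higher, at 6.63 ± 0.22 against 5.83 ± 0.02. Nod2-/- replicate 3, at 6.66, exceeded replicate 2, at 6.40. The remaining 19 of 22 taste genes, among them the G protein subunit Gnat3 and the calcium channel Itpr3, are not named.

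The leukotriene enzymes Alox5 and its activating protein Alox5ap were 1.47-fold and 1.93-fold higher. Alox5 read 4.76, 4.71 and 4.79 in WT and 5.58, 5.31 and 5.04 in Nod2-/-, without overlap. Alox5ap read 6.40, 5.35 and 5.58 against 7.22, 7.13 and 5.83, where Nod2-/- replicate 3 lay below WT replicate 1. Ptgs1, the constitutive cyclooxygenase, was 1.42-fold higher and had its lowest Nod2-/- value, 5.44, in replicate 1. With genotype means removed, r with the mean of the 7 genes was 0.90 for Alox5, 0.59 for Alox5ap and 0.00 for Ptgs1. Vav1, a guanine nucleotide exchange factor, and Tuba1a, a tubulin, were 1.36-fold and 1.53-fold higher (r of 0.84 and 0.89).

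**Figure D3:**
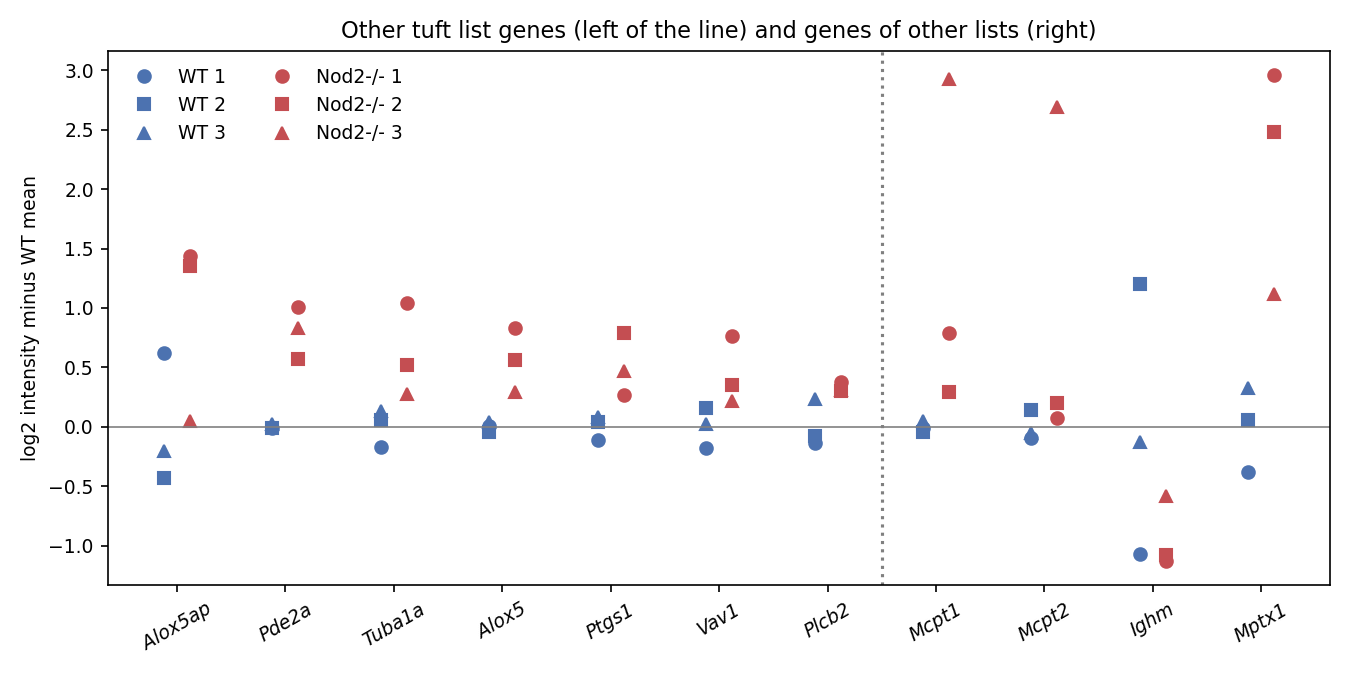
Log2 intensity minus the WT mean of the same gene (y axis) on the 3 WT (blue) and 3 Nod2-/- (red) arrays for the 7 further genes of the tuft lists, left of the dotted line, and for Mcpt1, Mcpt2, Ighm and Mptx1, right of it. Nod2-/- replicate 3 (red triangle) is the highest array for Mcpt1 and Mcpt2 and the lowest Nod2-/- array for Mptx1.

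Several of the 7 genes are used by other cells of the mucosa, whose markers were read from lists of the same kind. Rgs13 is also expressed by germinal centre B cells and mast cells. Of 20 B cell genes 3 are named, Cd74, H2-Aa and Ighm. Their summed intensity was 288, 1813 and 1536 in WT replicates 1, 2 and 3, and 999 to 1887 in Nod2-/-. Cd74 (1.55-fold) and H2-Aa (1.41-fold), of antigen presentation, averaged higher in Nod2-/-, while Ighm averaged 1.91-fold lower, and in all 3 the genotypes overlapped. Ighm, the constant region of IgM, read 4.38, 6.65 and 5.32 in WT, lowest in replicate 1 and highest in replicate 2 as Rgs13 was, and 4.32, 4.37 and 4.87 in Nod2-/-, where Rgs13 was high. Cd74 read 7.51, 10.24 and 9.94 in WT, in the same order, and 10.47, 9.25 and 9.87 in Nod2-/-. Cd79a and Ms4a1 are unnamed.

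Of 14 mast cell genes 4 are named. Leaving out Rgs13, their summed intensity was 274 to 290 in WT and 376 to 664 in Nod2-/-. The WT sums are mainly Kit, with a WT mean of 7.85 (log2), against 4.63 for Mcpt1 and 4.69 for Mcpt2. The genotypes overlapped in Mcpt2 but not in Mcpt1 or Kit. The proteases Mcpt1 and Mcpt2 read 7.56 and 7.38 in Nod2-/- replicate 3 and between 4.76 and 5.42 in the other Nod2-/- arrays. Among the Nod2-/- arrays, the one with the least of the 7 tuft cell genes thus had the most of these. This did not hold over all arrays, since WT replicate 1 had the lowest mean of the 7 genes and read 4.62 and 4.60. Kit, a receptor of mast cells and of crypt base cells, was 1.49-fold higher, at 8.42 ± 0.23 against 7.85 ± 0.06.

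Spib is shared with Paneth and M cells. Of 20 Paneth cell genes 5 besides Spib are named, Reg3g, Reg3b, Reg4, Mptx1 and Kit, all averaging higher in Nod2-/-. They come from the table selected on this difference, and in Reg3b and Reg4 the genotypes overlapped. Their sums were 3729 to 6966 in WT and 12779, 10919 and 8806 in Nod2-/- replicates 1, 2 and 3. The brighter Reg genes weigh most in these sums. Of 14 M cell genes Ccl9 and Marcksl1 are named besides Spib, with sums of 449 to 602 and 770 to 897. Myeloid and T cell genes, of which 4 of 20 are named, had overlapping sums. These were 228, 665 and 693 in WT replicates 1, 2 and 3, and 488 to 764 in Nod2-/-. WT replicate 1 also had the lowest WT sum for the Paneth, M and B cell genes, but not for the mast cell genes. Array intensities have no 0, and the part of any of these cells in the values of the 7 genes was not tested.

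Tuft cells drive, through interleukin 25 and innate lymphoid cells, an epithelial response to interleukin 13, and 7 of 18 genes listed for that response are named. Each of the 7 had all Nod2-/- arrays above all WT arrays, as had 3.42% of all probe sets and 37.7% of those at least 1.33-fold higher, and their median log2 difference was 2.18. They too come from the table selected on this difference. Their sums were 923 to 1595 in WT and 5378, 5675 and 3187 in Nod2-/- replicates 1, 2 and 3, so replicate 3 was again the lowest of its genotype. With genotype means removed, r with the mean of the 7 tuft cell genes was 0.98 for Mptx1, 0.73 for Retnlb and 0.54 for Pla2g4c, but 0.37 for Gsdmc2 and 0.25 for Clca1. Enteroendocrine cells, the other sensory cells of the epithelium, had 5 of 16 genes named. Tac1, Cck, Ghrl and Chga averaged higher and Sst lower, and the genotypes overlapped in all of them but Chga. Ghrl was high on 1 array, at 9.64, 6.16 and 6.34 in Nod2-/- replicates 1, 2 and 3 against 7.20, 7.25 and 6.15 in WT. Sst read 5.79 in WT replicate 1 and 9.05 and 8.89 in WT replicates 2 and 3. The sums of these 5 genes overlapped, at 444, 1011 and 804 in WT replicates 1, 2 and 3 and 582 to 1540 in Nod2-/-.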

How the data were processed

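Total RNA (100 ng per sample) from laser-captured crypt base epithelium was hybridised to 6 one-colour arrays, per the labels. The deposited intensity values of 28853 probe sets were made by the authors with RMA, per the submitters' processing notes, and lie on a linear scale. The software is not given in the sources used here. A second deposited table (MoGene 1.0 ST, mm9, per the file headers) names 3.65% of the probe sets and was selected by the authors on the genotype difference. Its intensities equal the value table in all 1053 probe sets (relative tolerance 0.001), and 12 further columns of per-sample values in it were not used. Of its probe sets 855 have 1 symbol, 104 several and 94 none, and symbols were updated by Entrez number through RefSeq (GRCm38.p6; 800 matched).

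Log2 was taken, and groups came from the sample titles. Limma 3.58.1 in R 4.3.3 was run on every probe set, with a term for genotype alone and Benjamini-Hochberg adjustment, and was tested on simulated data. Standard errors of single genes come from the SDs of both groups. Python 3.11.15 gave the other values. A gene with several probe sets is represented by the one with the highest mean. Named genes are the 7 genes, every named gene of the tuft identity, taste and eicosanoid lists, up to 4 of each other list by size (a few more are named after their values were seen), and the 5 with the highest r by each measure of likeness. The 7 genes, the lists and the alternatives were chosen with earlier results of these data known. Same-numbered arrays had correlations of deviations of 0.201, -0.022 and 0.061 over probe sets, so the numbers were not taken as pairs.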

Additional observations from a re-analysis of the deposited data

How the results depend on the processing

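The 7 genes were higher in Nod2-/- under all 11 alternatives run for each (77 of 77 values). They come from the table selected on this difference, and the alternatives reuse the same 6 arrays. The direction was thus close to fixed in advance, and nothing is read from this count. Leaving out 1 array at a time gave a mean difference of the 7 genes between 0.60 and 1.08 on the log2 scale. In these settings the median r was between 0.16 and 0.75, and the median of the further tuft genes between 0.42 and 0.69. The count of genes without overlap was between 3 and 7 (7 without Nod2-/- replicate 3). The share of all probe sets without overlap was not computed with an array left out, so nothing is read from that count. The mean difference was 1.39 between the replicate 1 arrays, 0.51 between the means of replicates 2 and 3, and 0.53 with 32 added to each value. The median r was 0.92 over the Nod2-/- arrays only, an alternative chosen after seeing the data, as were those without Rgs13 or Spib. With so few arrays r tends to lie near its limits, so nothing is read from the value of 0.92. Limma's count of probe sets was 0, and between 0 and 2 with 1 array left out (2 without Nod2-/- replicate 1), 3 with dim probe sets left out and 3 with a trended and robust prior. A block for the replicate number left 0, with 0.969 as the lowest adjusted p. The causes were not tested. Signal over background was not analysed, which limits what the dim probe sets of Dclk1 and Spib can show. The same limit applies to other named genes with WT means below 5.11, the lowest array median. Among these are Alox5 (4.75), Vav1 (4.84), Mcpt1 (4.63), Mcpt2 (4.69) and Pla2g4c (5.02). Every WT reading of Dennd4a, Ptpn2, Ppp2r3c, Strip2, Uxt and Snord53 was also below 5.11.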
